A study of Mus musculus with 20 samples.

Results

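Histone genes were described across 6 polyA RNA libraries from mouse brain, from cycling precursors to medium spiny neurons, the projection neurons of the striatum. Members were chosen by symbol: the Hist1h to Hist4h genes of the replication-dependent clusters and 9 replacement variants, H1f0, H1fx, H2afx, H2afy, H2afy2, H2afz, H2afv, H3f3a and H3f3b. The rule found 80 genes among 34620 symbols, 71 replication-dependent and 9 replacement, and 3 of the 71 are pseudogenes in RefSeq. Striatal precursors (SP), hippocampal precursors (HP), young medium spiny neurons (yMSN) and young hippocampal CA pyramidal neurons (yCA) had 1 library each, and dorsal medium spiny neurons (dMSN) had 2. All 6 libraries are labelled as male, wild-type C57BL/6, and the labels give no ages. The cell types are labels of microdissected frozen brain sections, so each library can hold every cell of the piece, and in such bulk tissue fewer cells of a type and less RNA per cell cannot be told apart.

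Histones package DNA into nucleosomes, built from H2A, H2B, H3 and H4, and the linker histone H1 binds the DNA between them. Replication-dependent histone genes are transcribed mainly in S phase, to supply the chromatin of newly copied DNA. Their mRNAs end in a stem-loop bound by the protein SLBP, and they normally carry no polyA tail. Replacement variants are made throughout the cell cycle from ordinary polyadenylated mRNAs and are deposited without DNA synthesis, so they are the usual source of new histones in neurons. H2afx is an exception in that its gene yields both stem-loop and polyadenylated mRNA. Selection on polyA therefore takes mainly polyadenylated copies of the replication-dependent transcripts, and the levels below are levels of that RNA, not of all histone mRNA.

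Promoters of 4 replication-dependent genes and 1 replacement gene, all named in the results, are shown first. Hist1h2bc and Hist2h2be, also among the main genes below, had no listed promoter. They were chosen with their expression values known. Sequences are from RefSeq, build GRCm38.p6, and give the 200 bases before the annotated start on the gene's own strand. Capitals mark 3 motifs searched on both strands, CCAAT (the CCAAT box), TATAAA (the TATA box) and ATTTGCAT (the octamer known from H2B promoters). No marked motif overlaps another here, and a motif on the other strand appears as its reverse complement. Exact matches were marked at any position, so a marked TATAAA need not lie at a TATA box site. TATA-like variants of the sequence were left unmarked. Hist3h2ba lies at chr11:58948711-58948910 (+), Hist1h1c at chr13:23738607-23738806 (+), Hist1h4h at chr13:23530844-23531043 (+), Hist1h4i at chr13:22041363-22041562 (-) and H3f3b at chr11:116024505-116024704 (-).
Hist3h2ba: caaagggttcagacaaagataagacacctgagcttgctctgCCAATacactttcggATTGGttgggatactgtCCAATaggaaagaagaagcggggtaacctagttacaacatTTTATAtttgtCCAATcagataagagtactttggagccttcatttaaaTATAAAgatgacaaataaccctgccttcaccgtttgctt
Hist1h1c: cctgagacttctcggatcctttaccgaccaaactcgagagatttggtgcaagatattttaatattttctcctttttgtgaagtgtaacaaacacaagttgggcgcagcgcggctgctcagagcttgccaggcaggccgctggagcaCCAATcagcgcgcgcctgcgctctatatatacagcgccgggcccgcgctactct
Hist1h4h: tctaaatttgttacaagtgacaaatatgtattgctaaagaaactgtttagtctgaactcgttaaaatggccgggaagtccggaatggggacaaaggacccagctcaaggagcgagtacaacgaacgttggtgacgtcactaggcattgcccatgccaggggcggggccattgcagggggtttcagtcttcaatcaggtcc
Hist1h4i: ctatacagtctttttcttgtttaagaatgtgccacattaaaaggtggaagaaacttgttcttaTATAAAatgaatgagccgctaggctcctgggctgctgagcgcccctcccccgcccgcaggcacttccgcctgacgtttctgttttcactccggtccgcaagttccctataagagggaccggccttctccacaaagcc
H3f3b: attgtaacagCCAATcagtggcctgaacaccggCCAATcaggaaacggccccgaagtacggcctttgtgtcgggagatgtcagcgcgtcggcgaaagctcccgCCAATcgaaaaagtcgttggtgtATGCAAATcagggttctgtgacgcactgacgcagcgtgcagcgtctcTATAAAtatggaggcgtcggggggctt
Hist3h2ba, an H2B gene, held 4 copies of CCAAT and 2 of TATAAA. Hist1h4h held none of the 3 motifs in these bases, and Hist1h4i held TATAAA alone, 137 bases before the start. H3f3b, a replacement H3.3 gene, held all 3 motifs.

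Over the whole table of RefSeq promoters, each of 300 bases reaching 50 past the start, 68 of the 80 members had 1 listed promoter. CCAAT was present in 85.0% of the 60 replication-dependent promoters, in 62.5% of the 8 replacement promoters and in 37.4% of all 32851 promoters. All H1, H2A, H2B and H3 promoters of the replication-dependent kind held it, and 25.0% of the 12 H4 promoters did. TATAAA was present in 58.3% of the replication-dependent, 12.5% of the replacement and 13.6% of all promoters. The octamer was found in 41.2% of 17 H2A and 40.0% of 15 H2B promoters, where H2A and H2B genes often share a divergent promoter, and in 1.74% of all promoters. Replication-dependent genes detected at 1 CPM (TMM-scaled counts per 1000000 counts of the library) or more held CCAAT in 77.8% of 9 promoters, and those below it held CCAAT in 86.3% of 51. The 9 leave out Hist1h2bc, Hist2h2be and Hist2h4, with no listed promoter, and Hist1h2be, with 2, so most H2B genes at that level are missing. Of the replication-dependent members matched to RefSeq, 55 lie on chromosome 13, the main mouse histone cluster. The promoters of Hist1h2bq and Hist1h2br were identical in all 300 bases.

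Libraries held 35874646 gene counts in SP, 31282185 in HP, 36969136 in yMSN, 35418531 in yCA, and 152347673 and 145713678 in dMSN 1 and 2. Levels are CPM after TMM scaling, with scaling factors of 1.10 to 1.18 in the 4 single libraries against 0.790 and 0.795 in the dMSN pair. The median cycling precursor marker stood at 515 CPM in SP and 456 in HP, 231 in yMSN and 222 in yCA, and 23.0 and 18.9 in the dMSN libraries. Markers of medium spiny neurons had a median of 266 and 256 CPM in dMSN, against 18.1 in yMSN and 19.3 in yCA, so the yMSN label was not set apart from yCA by them. The young libraries held skeletal muscle markers, with a median of 125 CPM in yMSN and 428 in yCA, against at most 1.16 CPM in the other 4. Epidermal markers summed to 486 CPM in yMSN and 341 in yCA, against 15.9 to 80.0 CPM in the other 4, and bone and cartilage markers had a median of 24.1 CPM in yMSN, against at most 0.63 CPM elsewhere. Erythroid markers summed to 2151 CPM in SP and 2072 in HP, 153 in yMSN and 76.6 in yCA, and 1.48 and 1.59 in dMSN. Oligodendrocyte markers summed to 9223 and 7897 CPM in dMSN, against 67.8 to 151 CPM elsewhere. Astrocyte markers summed to 3312 and 3152 CPM in dMSN, against 243 to 406 CPM elsewhere, and microglia markers to 597 and 542, against 58.0 to 140. Pyramidal neuron markers summed to 1250 CPM in dMSN 1 and 1967 in dMSN 2, 690 in yMSN and 1365 in yCA, and 87.0 in SP and 103 in HP. All libraries are labelled male, yet Xist had 21239 to 43205 counts in the 4 single libraries, against 4 and 0 in dMSN. Y-linked genes had 0 counts in SP and 672 in HP, 2108 in yMSN and 0 in yCA, and 8258 and 9348 in dMSN. What part these differences have in the histone values was not tested. Names of cell types below, such as young neurons, are labels of these mixed libraries, not of pure cells.

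Most replication-dependent genes were barely detected in any library. Of the 71, 8 had no count in any library and 58 stayed below 1 CPM in all 6, while 13 reached 1 CPM in at least 1 library. The genes without a count were Hist1h2aa, Hist1h2ao, Hist1h2ap, Hist1h2ba, Hist2h2aa1, Hist2h2aa2, Hist2h3b and Hist2h3c1.1. A count of 0 allows a level of up to 0.0861 CPM in HP, the shallowest library, and 0.0249 CPM in dMSN 1, the deepest, by counting error only. Reads aligning to several places made up 26.1% of the counter's totals in SP and 27.3% in HP. The shares were 24.2% in yMSN and 22.4% in yCA, and 17.3% and 21.0% in dMSN 1 and 2. Such reads were assigned to no gene, so near-identical copies such as Hist2h2aa1 and Hist2h2aa2 can be undercounted. What part this has in the differences between stages below was not tested. All 9 replacement variants were above 1 CPM in every library.

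The replication-dependent share of all histone counts, a ratio that library scaling does not touch, was 2.78% in SP and 2.29% in HP, 7.85% in yMSN and 5.12% in yCA, and 16.1% and 14.9% in dMSN 1 and 2. The shares were lowest in both precursor libraries and highest in both dMSN libraries, and their exact 95% intervals did not overlap between stages (2.68 to 2.89% in SP, 14.7 to 15.1% in dMSN 2). These intervals cover counting error only. Summed over the 71 genes, the level was 65.3 CPM in SP and 57.8 in HP, 146 in yMSN and 91.4 in yCA, and 213 and 207 in dMSN. The 9 replacement genes summed to 2284 CPM in SP and 2470 in HP, 1712 in yMSN and 1695 in yCA, and 1114 and 1183 in dMSN. The order of the stages was thus opposite for these 2 sums, but not for every class or gene within them. Class sums of replication-dependent H1, H2A and H2B followed the order of their total, while the H3 sum overlapped between stages. The H4 sum was highest in the precursors, at 12.56 CPM in SP and 12.98 in HP. It was 6.12 in yMSN and 2.31 in yCA, and 9.78 and 9.51 in dMSN. Among replacement genes, the summed H2afz and H2afv level was lowest in the young libraries, and that of H3f3a and H3f3b was highest there. On library totals alone the replication-dependent sum in dMSN was not above that in yMSN, with a log2 ratio of -0.04 in place of 0.53.

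**Figure D1:**
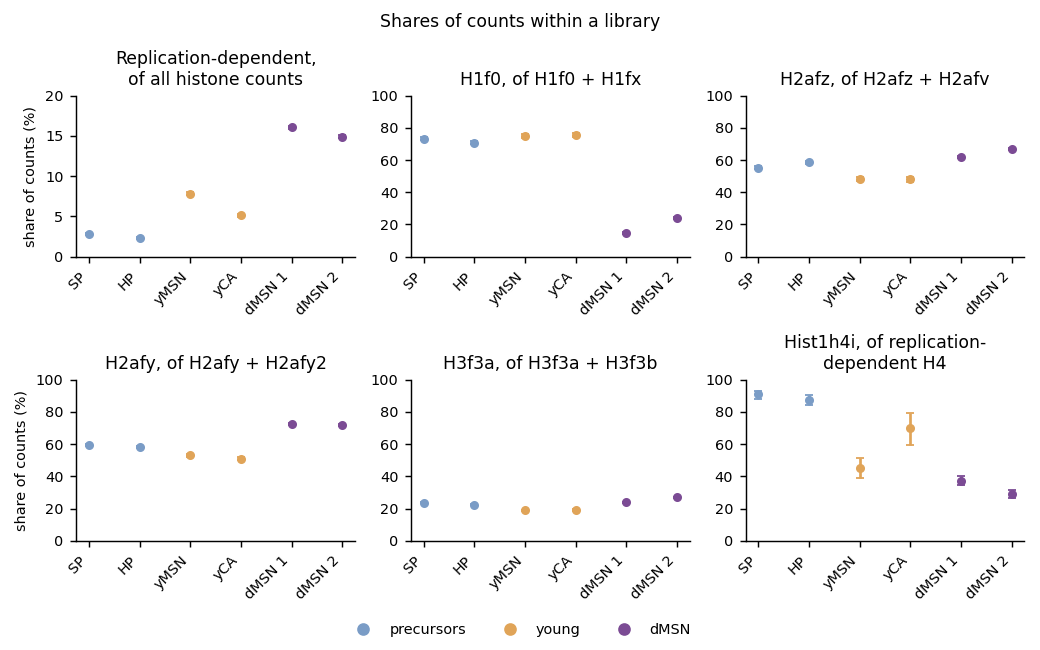
Replication-dependent share of all histone counts, shares within 4 pairs of replacement variants and the Hist1h4i share of replication-dependent H4 counts, in percent, 1 point per library coloured by stage, with exact 95% binomial intervals that cover counting error only. The replication-dependent share stands at 2.78% in SP and reaches 16.1% in dMSN 1, while H1f0 makes up 73.3% of H1f0 plus H1fx counts in SP and 14.6% in dMSN 1.

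The summed replication-dependent level rested on few genes. Hist1h1c, Hist1h2bc, Hist2h2be, Hist3h2a and Hist3h2ba held 69.7% of the replication-dependent counts in SP and 63.5% in HP, 89.2% in yMSN and 92.9% in yCA, and 90.7% and 89.7% in dMSN. The 58 genes below 1 CPM summed to 7.0 CPM in SP and 8.18 in HP, 5.09 in yMSN and 2.83 in yCA, and 4.72 and 6.75 in dMSN, so their sum was lowest in yCA and highest in HP.

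**Figure D2:**
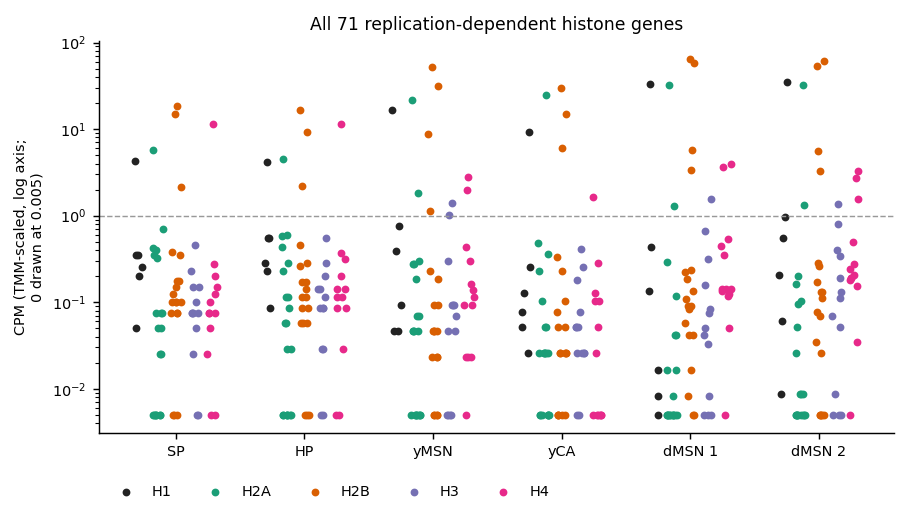
Level of the replication-dependent histone genes in each of the 6 libraries, in TMM-scaled CPM on a log axis, 1 point per gene coloured by histone class. Genes without a count are drawn at the foot of the axis and the dashed line marks 1 CPM. In all, 13 of the 71 genes reach 1 CPM in at least 1 library.

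Tests were edgeR quasi-likelihood F tests over 19192 genes with Benjamini-Hochberg adjustment, and a call means an adjusted p below 0.05. After the filter on low counts 38 members were tested, all 9 replacement and 29 replication-dependent, and 42 replication-dependent members were not. The filter asked for enough counts in 1 library, so a member could be tested only because it was high in 1 group. The labels do not say that libraries came from separate animals, so the p-values measure only the spread between these libraries. The comparison of young neurons with precursors takes yMSN and yCA against SP and HP in a model with lineage and stage, with 2 residual degrees of freedom. The comparisons of dMSN with SP and with yMSN share the 2 dMSN libraries and have 1 residual degree of freedom, the spread of the dMSN pair. SP and yMSN have no spread of their own. The quasi-likelihood test moderates each gene's variance with values pooled over all genes tested. Small p-values therefore rest largely on that pooled variance, not on the dMSN pair alone.

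The libraries labelled as young neurons had less mRNA of most replacement variants than the precursor libraries. Of the 9, 6 were called lower, 0 were called higher and 3 were not called, where 13.7% of all genes tested were called lower and 21.7% higher, 35.4% in all. The median log2 change of the 9 was -0.89, against 0.10 over all genes tested. Of the 29 replication-dependent members tested, 6 (20.7%) were called higher and 2 (6.9%) lower, with a median of -0.14. The share called higher was near that of all genes tested. Among the replacement variants the call for H2afy2 was lost without either dMSN library, and the count of replication-dependent genes called higher was 11 without HP and 11 without yCA, and 4 without each of the other 4 libraries in turn.

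H2afz and H2afv encode the 2 forms of H2A.Z, a variant at promoters and enhancers. H2afz stood at 210 CPM in SP and 234 in HP, 78.9 in yMSN and 67.1 in yCA, and 122 and 147 in dMSN. Both young libraries were below both precursor libraries, and dMSN lay between them. The log2 change of H2afz was -1.61 (SE 0.188, adjusted p = 0.00409 by edgeR) in young neurons against precursors and 0.77 (SE 0.216, adjusted p = 0.00738) in dMSN against yMSN. H2afv stood at 170 CPM in SP and 166 in HP, 84.3 in yMSN and 72.9 in yCA, and 74.1 and 73.4 in dMSN. It fell by 1.10 on the log2 scale (SE 0.143) in young neurons and was not called in dMSN against yMSN, at -0.19 (SE 0.194, adjusted p = 0.391 by edgeR). On library totals H2afv was called lower there, at -0.76 (adjusted p = 0.00379 by edgeR), and H2afz lost its call, at 0.20 (adjusted p = 0.416). H2afz made up 55.2% of H2afz plus H2afv counts in SP and 58.5% in HP, 48.3% in yMSN and 47.9% in yCA, and 62.1% and 66.6% in dMSN.

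H2afy and H2afy2 encode macroH2A1 and macroH2A2, H2A variants with a large extra domain that are linked to stable gene silencing. H2afy stood at 387 CPM in SP and 414 in HP, 181 in yMSN and 185 in yCA, and 137 and 133 in dMSN. H2afy2 stood at 264 CPM in SP and 296 in HP, 160 in yMSN and 177 in yCA, and 52.0 and 51.7 in dMSN. Both genes were lower at each later stage, with no overlap between stages. The log2 change in dMSN against SP was -1.52 (SE 0.197) for H2afy and -2.35 (SE 0.192) for H2afy2. In dMSN against yMSN H2afy2 was called lower at -1.63 (SE 0.192, adjusted p = 1.08e-05 by edgeR), and H2afy was at -0.42 (SE 0.201, adjusted p = 0.0795). H2afy was called lower there with upper quartile scaling, at -0.58 (adjusted p = 0.022 by edgeR), and on library totals, at -0.99 (adjusted p = 0.000832). H2afy made up 72.5% and 72.0% of the macroH2A counts in dMSN, against 59.4% in SP and 53.1% in yMSN.

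H2afx encodes H2A.X, the variant phosphorylated at DNA breaks. It stood at 153 CPM in SP and 177 in HP, 77.5 in yMSN and 55.0 in yCA, and 108 and 97.5 in dMSN. Its log2 change was -1.33 (SE 0.216, adjusted p = 0.00918 by edgeR) in young neurons against precursors and -0.57 (SE 0.195) in dMSN against SP.

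H3f3a and H3f3b encode the same H3.3 protein, the H3 variant placed in active genes and over time in the chromatin of neurons. H3f3b stood at 657 CPM in SP and 738 in HP, 795 in yMSN and 811 in yCA, and 339 and 376 in dMSN. H3f3a stood at 204 CPM in SP and 214 in HP, 185 in yMSN and 192 in yCA, and 107 and 139 in dMSN. Both were low in the dMSN libraries alone. Neither was called in young neurons against precursors, with log2 changes of -0.15 (SE 0.185) for H3f3a and 0.21 (SE 0.175) for H3f3b. In dMSN against yMSN the changes were -0.59 (SE 0.217, adjusted p = 0.029 by edgeR) for H3f3a and -1.15 (SE 0.215, adjusted p = 0.000454) for H3f3b. H3f3a counts are uncertain, since reads shared with its pseudogene copies could be left unassigned.

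H1f0 and H1fx encode the linker histones H1.0, which accumulates in cells that have stopped dividing, and H1.10. H1f0 stood at 175 CPM in SP and 163 in HP, 113 in yMSN and 102 in yCA, and 25.7 and 39.4 in dMSN. H1fx stood at 63.6 CPM in SP and 67.5 in HP, 37.8 in yMSN and 33.1 in yCA, and 150 and 126 in dMSN. H1fx was highest in the dMSN libraries, where H1f0 was lowest. Set against SP, dMSN H1f0 changed by -2.43 (SE 0.238, adjusted p = 1.46e-06 by edgeR) and H1fx by 1.12 (SE 0.216, adjusted p = 0.000484) on the log2 scale. H1f0 made up 14.6% and 23.9% of the counts of these 2 genes in dMSN, against 73.3% in SP and 74.9% in yMSN.

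**Figure D3:**
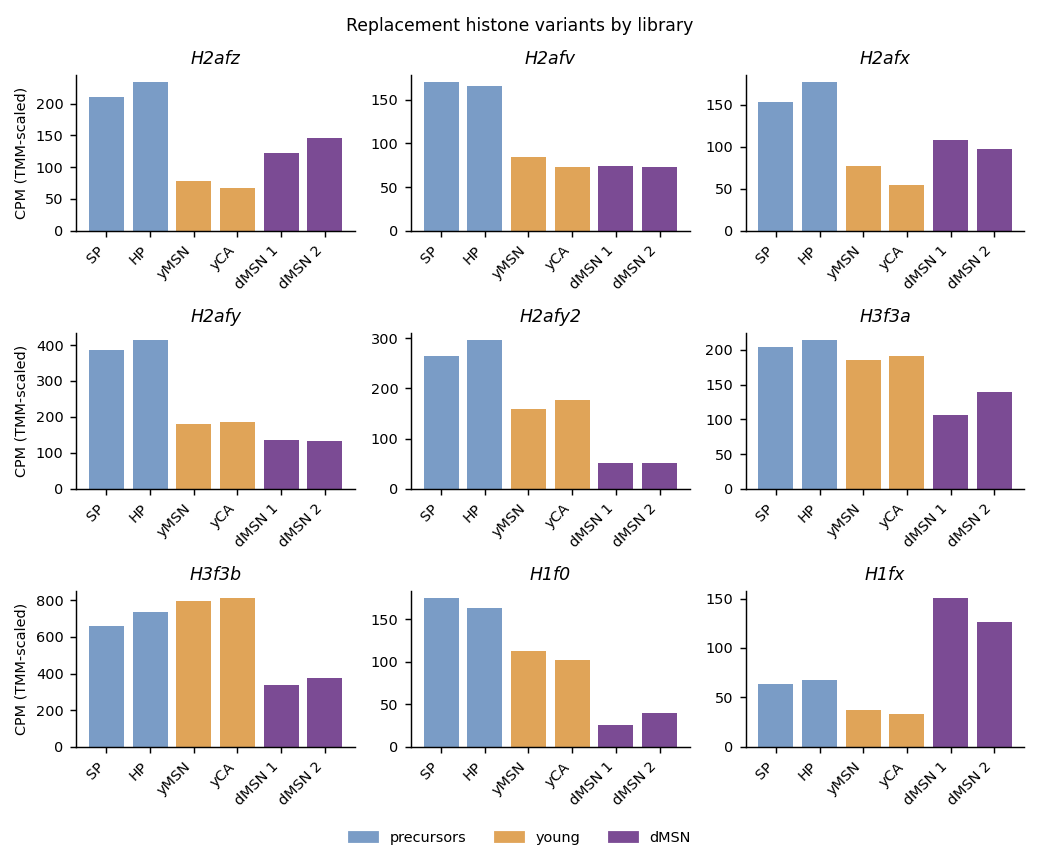
Levels of the 9 replacement variants in TMM-scaled CPM, with 1 panel per gene on its own axis from 0 and 1 bar per library, coloured by stage (precursors, young, dMSN). H1fx is the one variant with its highest levels in dMSN (150 and 126 CPM), and H3f3b is the one with its highest in the young libraries (795 and 811 CPM).

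In dMSN against SP, 8 of the 9 replacement variants were called lower and H1fx was called higher, where 33.1% of all genes tested were called lower and 39.1% higher, 72.1% in all. Of the 29 replication-dependent members tested, 9 (31%) were called higher and 6 (20.7%) lower, both below the shares of all genes tested. The median log2 change of these 29 was 0.87 and that of the replacement variants -0.88, against 0.20 over all genes tested. The count of replacement variants called lower was 4 without dMSN 1 and 5 without dMSN 2, both fitted with lineage and stage, a model in which all 8 were called with the 2 dMSN libraries kept. H2afx, H2afz and H3f3b lost their call without either dMSN library, and H3f3a without dMSN 1. H1f0, H2afv, H2afy and H2afy2 kept theirs without either.

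The 9 replication-dependent genes called higher in dMSN than in SP were Hist1h1c, Hist1h2ac, Hist1h2bc, Hist1h2be, Hist1h4h, Hist2h3c1, Hist2h3c2, Hist3h2a and Hist3h2ba, with members of all 5 histone classes. Hist1h2bc, an H2B gene of the main cluster, stood at 2.17 CPM in SP and 2.21 in HP, 8.68 in yMSN and 5.96 in yCA, and 65.3 and 60.4 in dMSN. Its log2 change was 4.86 (SE 0.302, adjusted p = 2.52e-08 by edgeR) in dMSN against SP and 2.86 (SE 0.261, adjusted p = 1.18e-06) in dMSN against yMSN. The stages did not overlap. Hist1h2ac, its neighbour, stood at 0.43 CPM in SP and 0.60 in HP, 1.84 in yMSN and 0.49 in yCA, and 1.30 and 1.34 in dMSN, and its call in dMSN against SP was lost in the model with lineage and stage, with all libraries or without either dMSN library. Hist1h2bc made up 98.1% and 97.8% of the counts of the pair in dMSN, against 83.5% in SP.

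Hist3h2a and Hist3h2ba are an H2A and an H2B gene of the small cluster on chromosome 11. Hist3h2a stood at 5.74 CPM in SP and 4.57 in HP, 21.8 in yMSN and 24.9 in yCA, and 32.3 and 32.0 in dMSN. Hist3h2ba, whose promoter is printed above, stood at 14.9 CPM in SP and 9.19 in HP, 31.0 in yMSN and 29.8 in yCA, and 57.3 and 53.2 in dMSN. Both genes were higher at each later stage without overlap, except that on library totals the log2 change of Hist3h2a in dMSN against yMSN was -0.011 in place of 0.56. In young neurons against precursors the log2 change was 2.18 (SE 0.223, adjusted p = 0.00311 by edgeR) for Hist3h2a and 1.38 (SE 0.214, adjusted p = 0.00819) for Hist3h2ba. In dMSN against SP it was 2.48 (SE 0.264) for Hist3h2a and 1.89 (SE 0.235) for Hist3h2ba.

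Hist1h1c, which encodes the linker histone H1.2, stood at 4.23 CPM in SP and 4.16 in HP, 16.8 in yMSN and 9.18 in yCA, and 33.1 and 34.7 in dMSN. Its log2 change was 1.57 (SE 0.275, adjusted p = 0.0115 by edgeR) in young neurons against precursors and 3.0 (SE 0.285, adjusted p = 1.08e-06) in dMSN against SP. The young call for Hist1h1c was lost without dMSN 1 (adjusted p = 0.0538 by edgeR) and without dMSN 2 (0.0536). The other H1 genes of the cluster stayed below 1 CPM in all 6 libraries. Hist1h1c held 98.2% and 95.1% of the replication-dependent H1 counts in dMSN, against 77.8% in SP and 92.6% in yMSN.

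**Figure D4:**
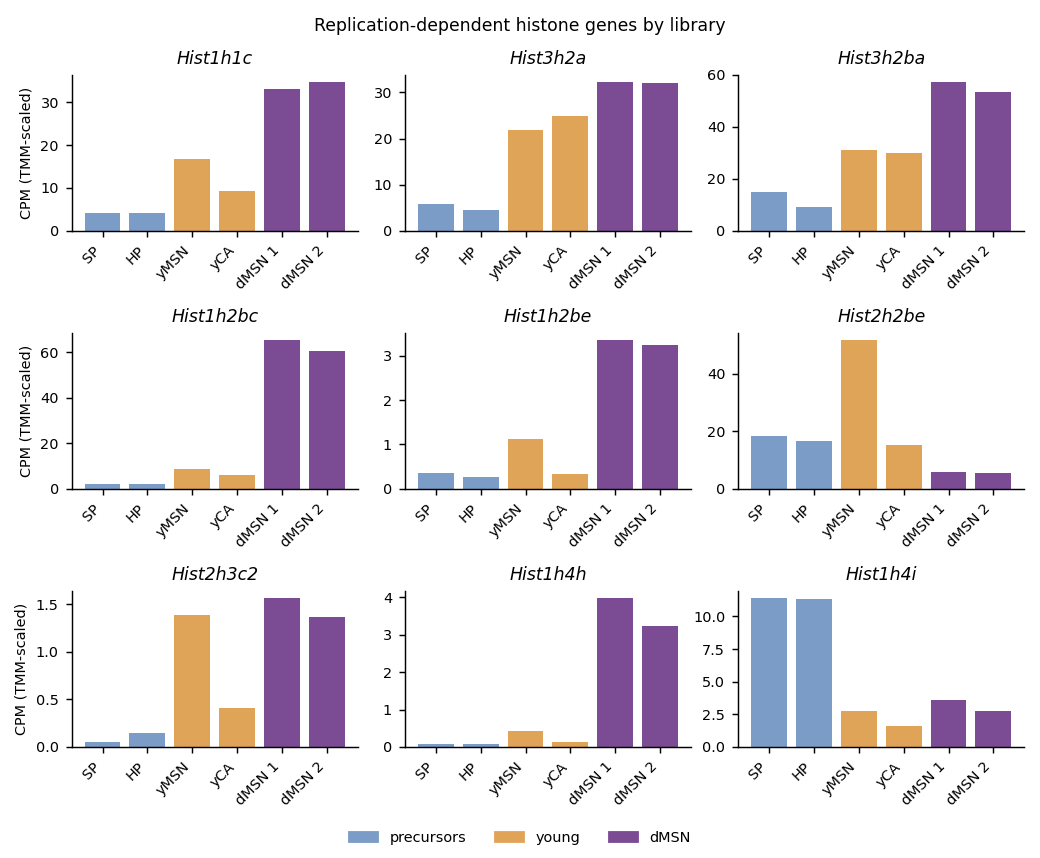
Levels of 9 of the replication-dependent genes named, in TMM-scaled CPM, with 1 panel per gene on its own axis from 0 and 1 bar per library, coloured by stage. Hist1h2bc reaches 65.3 and 60.4 CPM in dMSN, Hist2h2be peaks at 51.7 CPM in yMSN, and Hist1h4i is highest in SP and HP at 11.4 CPM each.

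The H4 gene Hist1h4i had its highest levels in the precursors, and the H4 gene Hist1h4h had its highest in dMSN. Hist1h4i stood at 11.4 CPM in SP and 11.4 in HP, 2.76 in yMSN and 1.62 in yCA, and 3.63 and 2.75 in dMSN. It was high in both precursor libraries alone, with a log2 change of -2.42 (SE 0.359, adjusted p = 0.00736 by edgeR) in young neurons and -1.84 (SE 0.307, adjusted p = 0.000158) in dMSN against SP. Hist1h4h had 3 counts in SP, 3 in HP, 19 in yMSN and 5 in yCA, and 478 and 375 in dMSN. It passed the main filter on low counts only through yMSN and dMSN, so higher was nearly the only call open to it against SP. Its level in dMSN was 3.97 and 3.24 CPM, and its log2 change was 3.04 (SE 0.53, adjusted p = 0.000268 by edgeR) in dMSN against yMSN. In dMSN 1 and 2 Hist1h4i made up 37.2% and 28.9% of the replication-dependent H4 counts and Hist1h4h 40.6% and 34.0%. The exact 95% intervals of the 2 genes overlapped in dMSN 1 (34.4 to 40.0% and 37.8 to 43.5%). At the earlier stages Hist1h4i made up 90.8% in SP and 87.6% in HP, and 45.1% in yMSN and 70% in yCA. The call for Hist1h4i in dMSN against SP was lost without dMSN 2 (adjusted p = 0.0617 by edgeR). Neither printed H4 promoter held CCAAT, like most H4 promoters searched.

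The H3 genes Hist2h3c1 and Hist2h3c2 had 1 to 5 counts in the precursor libraries. Hist2h3c2 stood at 0.050 CPM in SP and 0.14 in HP, 1.38 in yMSN and 0.41 in yCA, and 1.56 and 1.36 in dMSN. Hist2h3c1 stood at 0.076 CPM in SP and 0.029 in HP, 1.01 in yMSN and 0.26 in yCA, and 0.67 and 0.79 in dMSN. Neither was called in dMSN against yMSN, with log2 changes of 0.08 (SE 0.495) for Hist2h3c2 and -0.47 (SE 0.582) for Hist2h3c1. Both were called higher in young neurons than in precursors, and both lost that call without SP and without yMSN. As near-identical genes their counts are uncertain. Both genes passed the main filter on low counts only through young and dMSN libraries. Higher was thus nearly the only call open to them against precursors. The Hist2h3c2 calls were also lost without either dMSN library, in young neurons against precursors and in dMSN against SP.

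In dMSN against yMSN, 7 (24.1%) of the 29 replication-dependent members were called higher and 2 (6.9%) lower. Of all genes tested, 32.1% were called higher and 35.4% lower, 67.5% in all. Of the replacement variants, 2 were called higher (H1fx and H2afz) and 4 lower (H1f0, H2afy2, H3f3a and H3f3b). The median log2 change was 0.08 for the replication-dependent members and -0.42 for the replacement variants, against -0.11 over all genes tested. Called higher were Hist1h1c, Hist1h2bc, Hist1h2be, Hist1h4d, Hist1h4h, Hist3h2a and Hist3h2ba. On library totals alone 2 of these 7 were called higher (Hist1h2bc and Hist1h4h), while the median of all genes tested was then -0.68. With lineage and stage as terms and all libraries, 5 of these 7 were called, without Hist3h2a and Hist3h2ba. In that same model 3 of the 7 were called without dMSN 1 and 2 without dMSN 2, and Hist1h2bc and Hist1h4h kept their call in both. In that model H3f3a lost its call with all libraries, H2afz lost its call without either dMSN library, and H3f3b lost its call without dMSN 1.

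Hist1h2be, another H2B gene of the main cluster, stood at 0.35 CPM in SP and 0.26 in HP, 1.13 in yMSN and 0.33 in yCA, and 3.35 and 3.24 in dMSN. Its log2 change in dMSN against SP was 3.22 (SE 0.535, adjusted p = 0.000149 by edgeR). Hist1h4d had 64 counts in dMSN 1 and 179 in dMSN 2, against 7 in yMSN and 11 in SP, and its dMSN pair differed more than that of Hist1h4h.

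**Figure D5:**
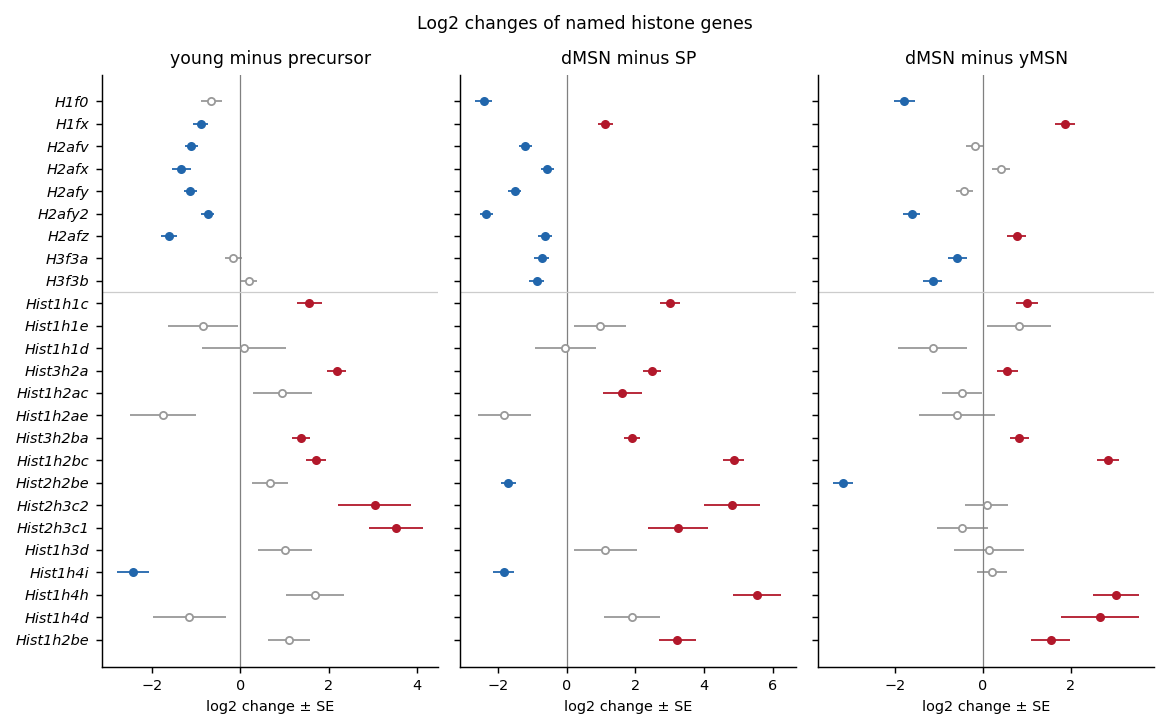
Log2 changes of the 9 replacement variants and the named replication-dependent genes in the 3 comparisons, with SE bars. Filled red points were called higher and filled blue points lower at an adjusted p below 0.05, and open grey points were not called. In dMSN against SP, 8 of the 9 replacement variants lie below 0 and are called.

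Hist2h2be differed in its order of levels from Hist3h2ba, Hist1h2bc and Hist1h2be, the other H2B genes that reached 1 CPM in a library. This H2B gene is known in mouse for its expression in olfactory sensory neurons. It stood at 18.5 CPM in SP and 16.5 in HP, 51.7 in yMSN and 15.1 in yCA, and 5.71 and 5.62 in dMSN. The yMSN library was high and both dMSN libraries were low. The log2 change was -3.19 (SE 0.226, adjusted p = 1.38e-07 by edgeR) in dMSN against yMSN and -1.71 (SE 0.227, adjusted p = 2.22e-05) in dMSN against SP, the second of which was lost without dMSN 1 (0.0594) and without dMSN 2 (0.0585). Between yMSN and yCA the log2 ratio was 1.77, with an exact 95% counting interval of 1.64 to 1.91 and no test. Of the 10 olfactory epithelium markers the median was 31.3 CPM in yMSN, against at most 3.35 CPM in the other 5 libraries, and none was at 0 in yMSN. Their sum was 22.2 CPM in SP and 21.6 in HP, 382 in yMSN and 187 in yCA, and 493 and 486 in dMSN. Gnal, a G protein subunit that striatal neurons also express, made up 145 CPM of the sum in yMSN and 164 in yCA, and 391 and 387 in dMSN. Omp, a defining gene of mature olfactory neurons, had 42.9 CPM in yMSN, against at most 1.27 CPM in the other 5 libraries. Their part in the Hist2h2be value was not tested.

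Hist2h4, an H4 gene, had 6 counts in SP and 4 in HP, 85 in yMSN and 11 in yCA, and 14 and 32 in dMSN. It passed the main filter on low counts only through the young libraries, so lower was nearly the only call open to it in dMSN against yMSN. It was the other replication-dependent member called lower in dMSN than in yMSN, with a log2 change of -3.31 (SE 0.654, adjusted p = 0.000697 by edgeR). That call was lost without either dMSN library.

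The 6 replication-dependent members called lower in dMSN than in SP were Hist1h4i, Hist2h2be and 4 genes near the limit of detection, named here after their values were seen. Hist1h3c had 4 and 0 counts in dMSN, against 18 in SP. Hist1h2ag had 2 and 3 counts in dMSN, against 16 in SP. Hist1h2aj, listed as a pseudogene in RefSeq, had 0 in both dMSN libraries, against 13 in SP and 1 in HP. Hist1h2bk had 11 and 0 in dMSN, against 15 in SP. All 4 had at most 3 counts in each young library, and they were not called in DESeq2 or with a filter of 1 CPM in 2 libraries. They passed the main filter on low counts only through precursor libraries, where they were highest. Lower was thus nearly the only call open to them. Hist1h2ag was also the second gene called lower in young neurons than in precursors, with the same limit.

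Regional differences within a stage were read as single pairs, with no test. Between SP and HP, the log2 ratios of the 9 replacement variants lay between -0.21 and 0.10. Their counting intervals lay below 0 for 7 and above 0 for 1. Of 17532 genes with more than 3 counts in both libraries, 21% lay above 0 and 21% below. Among 12 named replication-dependent genes, the intervals of 3 lay above 0 and of 0 below. Hist3h2ba was higher in SP, at 14.9 CPM against 9.19 CPM in HP, a log2 ratio of 0.70 (counting interval 0.50 to 0.90). Between yMSN and yCA, the intervals of 11 of the 16 replication-dependent genes named by rule lay above 0 and that of 1, Hist3h2a, lay below. These 16 were named for a high mean level in their class or a call higher in dMSN, not drawn from all members. By the same intervals, 32.4% of 18373 genes with more than 3 counts in both libraries lay above 0 and 32.8% below. H2afx was higher in yMSN, with a log2 ratio of 0.50 (0.42 to 0.57).

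Of 26 factors of histone mRNA synthesis, 3-prime processing and decay, 19 (73.1%) were called lower and 1 higher in young neurons against precursors, with a median log2 change of -0.72, where 13.7% of all genes were called lower. Set against SP, 20 (76.9%) were lower and 3 higher in dMSN (median -1.19), where 33.1% of all genes were lower. Set against yMSN, 11 (42.3%) were lower, 3 higher and 12 not called in dMSN (median -0.40), near the 35.4% of all genes called lower. Casp8ap2 (FLASH), which acts in 3-prime processing of stem-loop histone mRNA, stood at 126 CPM in SP, 44.1 in yMSN, and 5.05 and 6.69 in dMSN. Zcchc11, a uridylating enzyme linked to histone mRNA decay, stood at 222 CPM in SP, 93.0 in yMSN, and 13.3 and 18.0 in dMSN. Zfp473, a component of the U7-dependent processing machinery, changed by -3.11 (SE 0.388) on the log2 scale in dMSN against SP. Cpsf3, the endonuclease that cuts both stem-loop and polyadenylated pre-mRNA, changed by -0.19 (SE 0.195, adjusted p = 0.396 by edgeR). Slbp, the stem-loop binding protein, named after its values were seen, stood at 134 CPM in SP and 144 in HP, 49.7 in yMSN and 45.1 in yCA, and 27.4 and 38.2 in dMSN.

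Chaperones of replication-coupled deposition showed 14 of 17 (82.4%) lower and 0 higher in young neurons against precursors (median -1.53), beside 13.7% of all genes lower. In dMSN against SP 15 (88.2%) were lower and 0 higher (median -2.0), beside 33.1% of all genes lower. In dMSN against yMSN 11 (64.7%) were lower and 1 higher (median -0.80), beside 35.4% of all genes lower. Chaf1b, a subunit of the chaperone CAF-1, stood at 70.2 CPM in SP, 21.1 in yMSN, and 1.00 and 1.25 in dMSN. Mms22l, a replication-fork factor that binds new histones with Tonsl, changed by -6.02 (SE 0.286), and Mcm2, a helicase subunit that also binds histones, by -5.79 (SE 0.21) on the log2 scale in dMSN against SP. Rbbp7, a histone-binding protein shared by many chromatin complexes, was at -0.09 (SE 0.206, adjusted p = 0.707 by edgeR).

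Chaperones and remodellers of replacement deposition were called in both directions. Of 22, 9 were called lower and 3 higher in young neurons against precursors (median -0.47), 13 lower and 6 higher in dMSN against SP (median -0.85), and 11 lower and 7 higher in dMSN against yMSN (median -0.33). In the last comparison 31.8% of the list was higher, near the 32.1% of all genes, and 50% was lower, beside 35.4% of all genes. By comparison, 40.9% of the list was lower in young neurons, beside 13.7% of all genes, and 59.1% was lower in dMSN against SP, beside 33.1%. Nap1l5 and Nap1l2, neural relatives of the chaperone NAP1, rose by 6.21 (SE 0.293) and 3.44 (SE 0.295) on the log2 scale in dMSN against SP. Nap1l5 stood at 697 and 734 CPM in dMSN, against 9.64 CPM in SP and 42.1 CPM in yMSN. Znhit1, a subunit of the SRCAP complex that deposits H2A.Z, stood at 165 and 138 CPM in dMSN, against 19.5 in SP and 30.2 in yMSN. Vps72, the H2A.Z-binding subunit of the same complex, was at -0.24 (SE 0.207, adjusted p = 0.322 by edgeR) in dMSN against SP.

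Of 30 S phase and cell cycle genes, 29 were called lower in young neurons than in precursors (median log2 change -1.89), all 30 in dMSN against SP (median -4.90) and 27 in dMSN against yMSN (median -3.34). Of all genes tested, 13.7%, 33.1% and 35.4% were called lower in these comparisons, with medians of 0.10, 0.20 and -0.11. Bub1, a mitotic checkpoint kinase, stood at 161 CPM in SP, 31.2 in yMSN, and 0.17 and 0.10 in dMSN. Top2a, which untangles replicated DNA, stood at 1064 CPM in SP, 272 in yMSN, and 2.60 and 2.58 in dMSN. Mki67, a marker of cycling cells, stood at 817 CPM in SP, 230 in yMSN, and 2.09 and 2.61 in dMSN. Ccne1, the cyclin that starts S phase, stood at 51.9 CPM in SP, 17.7 in yMSN, and 29.2 and 30.3 in dMSN. It was the 1 gene of the list called higher in dMSN than in yMSN, with a log2 change of 0.75 (SE 0.218, adjusted p = 0.00881 by edgeR), a call lost without either dMSN library.

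Of 8 further histone genes that the symbol rule leaves out, 2 were tested. Cenpa, the centromeric H3, stood at 110 CPM in SP and 123 in HP, 34.0 in yMSN and 24.0 in yCA, and 3.19 and 3.86 in dMSN. H2afj, an H2A variant known in human cells to accumulate in senescence, stood at 16.2 CPM in SP and 16.9 in HP, 22.3 in yMSN and 21.6 in yCA, and 128 and 106 in dMSN. The log2 change in dMSN against SP was -4.96 (SE 0.217) for Cenpa and 2.85 (SE 0.247) for H2afj.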

How the data were processed

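Each of 6 polyA libraries, made with a TruSeq RNA kit per the labels, has a deposited table of raw counts by gene symbol. HTSeq, edgeR, TopHat, TopHat2 2.0.2 and Bowtie 1.0.0, along with methylKit and Bismark, appear in the submitters' processing notes, as do NCBIM37 and mm9, with no role given for any tool or build. The strand setting is not given in the sources used here. The tables held 34620 symbols and 5 summary lines, which stayed out of library sizes, among them 5.34 to 9.81% of totals in no feature and 1.38 to 2.01% ambiguous. The series' 14 bisulfite samples were not used here.

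The analysis used edgeR 4.0.16 in R 4.3.3, with TMM scaling, filterByExpr (19192 genes kept) and the quasi-likelihood F test, and p-values were adjusted by Benjamini-Hochberg with a threshold of 0.05. CPM values are TMM-scaled. The SE is the log2 change divided by the square root of F. The edgeR script was tested on simulated data. Single pairs of libraries were given as ratios with exact binomial intervals at 95%, and shares with Clopper-Pearson intervals. DESeq2 1.42.0, limma 3.58.1, other scalings, filters and models, and leaving out each library were the alternatives. Promoter sequences came from RefSeq, and 78 of the 80 members matched 1 RefSeq gene by symbol.

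Members and gene lists were chosen with earlier results of these data known. Genes named were all replacement variants, the 3 members with the highest mean CPM in each replication-dependent class, every replication-dependent member called higher in either dMSN comparison and, in each pathway list, the 3 genes with the largest log2 change in dMSN against SP and the 1 with the smallest, among genes averaging at least 1 CPM. The others are named as seen after their values.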

Additional observations from a re-analysis of the deposited data

How the results depend on the processing

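No paired analysis was possible because the cell groups compared share only replicate number 1, and the lineage term of the young comparison matches brain region, not animals. The tests rest on 1 or 2 residual degrees of freedom and on a variance pooled over genes. Of the 5 cell groups 4 have 1 library, and depth leaves most replication-dependent genes at a few counts. The comparisons of dMSN with SP without SP, and with yMSN without yMSN, were not run.

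Replication-dependent genes called lower in young neurons against precursors numbered 1 with a filter of 1 CPM in 2 libraries, 1 in DESeq2 and 4 with 1 mean per cell group. In dMSN against SP they numbered 2 with that filter and 2 in DESeq2. In dMSN against yMSN they numbered 1 with that filter, 1 in DESeq2, 4 in limma voom and 4 on library totals, and those called higher numbered 4 in DESeq2 and 2 on library totals, with 1 replacement variant called higher there. On library totals 31% of all calls in dMSN against yMSN were higher, against 47.6% with TMM, and 43.4% against 54.1% in dMSN against SP. Of the calls in young neurons against precursors, 52.4% were higher with RLE scaling and 51.2% in DESeq2, against 61.3% with TMM.

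Summed replication-dependent log2 ratios for young over precursor, dMSN over SP and dMSN over yMSN were 0.78, 1.57 and 0.58 with RLE scaling and 0.94, 1.21 and -0.040 on library totals. With upper quartile scaling they were 1.56 for dMSN over SP and 0.37 for dMSN over yMSN. The replacement ratios were -0.61 (young over precursor) and -1.12 (dMSN over SP) with RLE scaling, -1.12 (dMSN over SP) and -0.73 (dMSN over yMSN) with upper quartile scaling, and -1.475 and -1.15 on library totals.

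When single libraries were left out, genes called ranged from 3590 to 7355 in young neurons against precursors, from 9263 to 13840 in dMSN against SP and from 6609 to 12940 in dMSN against yMSN. Without a dMSN library both dMSN comparisons used lineage and stage as terms, a model that called 12721 and 11504 genes with all libraries. Replication-dependent genes called higher ranged from 4 to 11, from 7 to 10 and from 2 to 7 in these 3 comparisons, and those called lower from 1 to 2, from 4 to 8 and from 1 to 2. The count of 11 came without HP and without yCA. Replacement variants called lower ranged from 5 to 6, from 4 to 8 and from 2 to 4, and in dMSN against yMSN those called higher from 1 to 2.

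Of the genes whose sign turned, Hist3h2a alone had been called. Without 1 library, Hist1h1d ranged from -1.08 to 1.10, Hist1h1e from -2.07 to 0.14, Hist1h2ac from -0.31 to 2.09 and Hist2h2be from -0.13 to 1.48 in young neurons against precursors. In dMSN against SP Hist1h1d ranged from -2.0 to 0.037 and Hist1h1e from -0.26 to 0.98, and in dMSN against yMSN Hist1h2ae from -1.23 to 0.24. Hist1h1d in young neurons was -0.053 with RLE scaling and -0.10 in DESeq2. In dMSN against yMSN with upper quartile scaling Hist2h3c2 was -0.071 and Hist1h3d -0.011. On library totals H2afx was -0.16, Hist3h2a -0.011, Hist2h3c2 -0.49, Hist1h3d -0.42, Hist1h4i -0.36, Cpsf3 -0.30, Rbbp7 -0.21 and Vps72 -0.14. Between yMSN and yCA H3f3b was 0.00494 with upper quartile scaling and 0.069 on library totals, where H3f3a was 0.046. Apart from the scaling itself, the cause was not tested.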
